A study of Mus musculus with 8 samples.

Results

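The cytosolic ribosomal protein genes were examined in total brain RNA of MOG-immunized mice. Members were the gene symbols Rpl or Rps followed by a number, with an optional letter, together with Rplp0, Rplp1, Rplp2 and Rpsa, and without pseudogene symbols. The deposited table measured 64 of them, among 22180 genes in all, each as the mean of the probe sets that carry exactly 1 gene symbol (104 probe sets for the 64 genes). 40 members belong to the large ribosomal subunit and 24 to the small subunit. A further 20 symbols of the mouse RefSeq annotation match the rule and have no value of their own here. Another 57 probe sets name a member together with other symbols and were used only as a comparison without gene names. The members were taken from their symbols and not from their values.

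All 8 samples come from mice given MOG (myelin oligodendrocyte glycoprotein) as immunogen, a model of multiple sclerosis, and brains were taken on day 14, at the maximum of disease. Black-coated mice were taken as wild-type and yellow-coated mice as C57BL/6Je/e (e/e below). The e/e mutation disables Mc1r, a melanocortin receptor best known from pigment cells. NDP-MSH, a long-lived analog of alpha-MSH that activates melanocortin receptors, went into a vein at a dose of 5 µg for each mouse on day 8, day 10 and day 12, and the other mice are labelled PBS. Each of the 4 combinations of genotype and injection has 2 samples, with 1 array per sample and no unimmunized group. The labels give no age or sex and do not say whether replicates were separate animals, and the p-values below reflect only how far these samples lie apart, which may be technical. Values are read as log2, which the labels do not state, and each probe set was centred on its median over the 8 arrays. Differences between arrays can therefore be read, while levels of 2 genes cannot be compared.

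The cytosolic ribosome joins a small subunit, which reads the mRNA, to a large subunit, which forms the peptide bond and holds the exit tunnel. Each subunit is built from ribosomal RNA and ribosomal proteins that are needed in equal numbers, and their mRNAs are among the most abundant of most cells. Nearly all of these mRNAs begin with a 5′ terminal oligopyrimidine (TOP) tract, a cytosine followed by further pyrimidines, through which mTORC1 and the binding protein LARP1 control their translation. In brain, ribosomal protein mRNAs are present in neurons and glia, and part of them is carried into dendrites and axons.

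The stretch around the annotated start of transcription was read from RefSeq (GRCm38.p6) for 49 of the 64 members, which have 58 annotated starts. A cytosine at the first base followed by at least 4 pyrimidines was found at 11 of the 58 starts (19.0%) against 2.51% of 32851 starts of all genes. A run of at least 7 pyrimidines within 10 bases of the start, on the strand that reads like the mRNA, was found at 21 of the 58 (36.2%) against 12.2%. The sequence CCGGAAG, or its reverse complement CTTCCGG, is a motif recognised by some ETS-family factors. It was found in the 300 bases from 250 before to 50 after 22 of the 58 starts (37.9%) against 8.86%. The pyrimidine counts overlap each other, and an annotated start can lie some bases from the start used in brain.

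Starts with the pyrimidine tract at the first base are shown for 6 members, chosen for having it, as examples of the tract. Most members with an annotated start lack it at that base. They are Rplp2 at chr7:141447636-141447665 (+ strand), Rpl14 at chr9:120571502-120571531 (+ strand), Rpl38 at chr11:114668565-114668594 (+ strand), Rps10 at chr17:27635230-27635259 (- strand), Rps18 at chr17:33955651-33955680 (- strand) and Rps6 at chr4:86857353-86857382 (- strand). Each line gives 15 bases before the start and 15 from it, 5′ to 3′ on the strand that reads like the mRNA. Capitals mark the longest run of C and T.
Rplp2: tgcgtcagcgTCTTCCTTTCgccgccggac
Rpl14: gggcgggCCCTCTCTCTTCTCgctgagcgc
Rpl38: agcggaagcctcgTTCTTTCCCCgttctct
Rps10: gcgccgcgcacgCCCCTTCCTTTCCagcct
Rps18: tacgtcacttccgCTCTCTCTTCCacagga
Rps6: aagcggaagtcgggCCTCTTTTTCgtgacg

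The same window is shown for 6 members with the smallest p in the wild-type comparison among those with an annotated start, 3 of each subunit, for comparison with the windows above. They are Rpl37 at chr15:5116598-5116627 (+ strand), Rpl34 at chr3:130730323-130730352 (- strand), Rpl13 at chr8:123102335-123102364 (+ strand), Rps28 at chr17:33824548-33824577 (- strand), Rps13 at chr7:116334176-116334205 (- strand) and Rps27l at chr9:66946071-66946100 (+ strand). Capitals again mark the longest run of C and T.
Rpl37: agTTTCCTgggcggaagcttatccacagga
Rpl34: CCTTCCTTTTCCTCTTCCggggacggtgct
Rpl13: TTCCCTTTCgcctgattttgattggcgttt
Rps28: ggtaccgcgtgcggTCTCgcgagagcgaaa
Rps13: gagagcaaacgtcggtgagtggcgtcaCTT
Rps27l: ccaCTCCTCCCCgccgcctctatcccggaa
Of these 6 windows, those of Rpl34 and Rps27l hold a run of 7 or more pyrimidines within 10 bases of the start, and none has the tract at the first base. Rpl34 and Rps27l have 2 annotated starts each, of which 1 is shown.

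Of the 7 neuron markers fixed for a check of the tissue, 6 were measured at an inferred signal of 8 or above on the log2 scale (all but Gad1). Across arrays, the ribosomal protein genes were highest on 1 of the 2 wild-type NDP-MSH arrays. The median of the 64 members was -0.010 for wild-type PBS 1 and 0.030 for PBS 2, then 0.068 for wild-type NDP-MSH 1 and 0.18 for NDP-MSH 2. For e/e PBS 1 it was 0.0022, for e/e PBS 2 -0.037, for e/e NDP-MSH 1 -0.024 and for e/e NDP-MSH 2 -0.075. The median of all genes lay between -0.0072 and 0.015 on every array. Wild-type NDP-MSH 2 was the highest of the 8 arrays for 43 of the 64 members (67.2%, against 25.1% of all genes), 26 of the large and 17 of the small subunit. The lowest array was e/e NDP-MSH 2 for 24 members (37.5%, against 12.2% of all genes). Replicates of a group were thus not alike. In wild-type mice 55 of 64 members were higher in NDP-MSH 2 than in NDP-MSH 1 (85.9%, against 54.5% of all genes). The median gap was 0.14, against 0.019 for all genes.

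**Figure D1:**
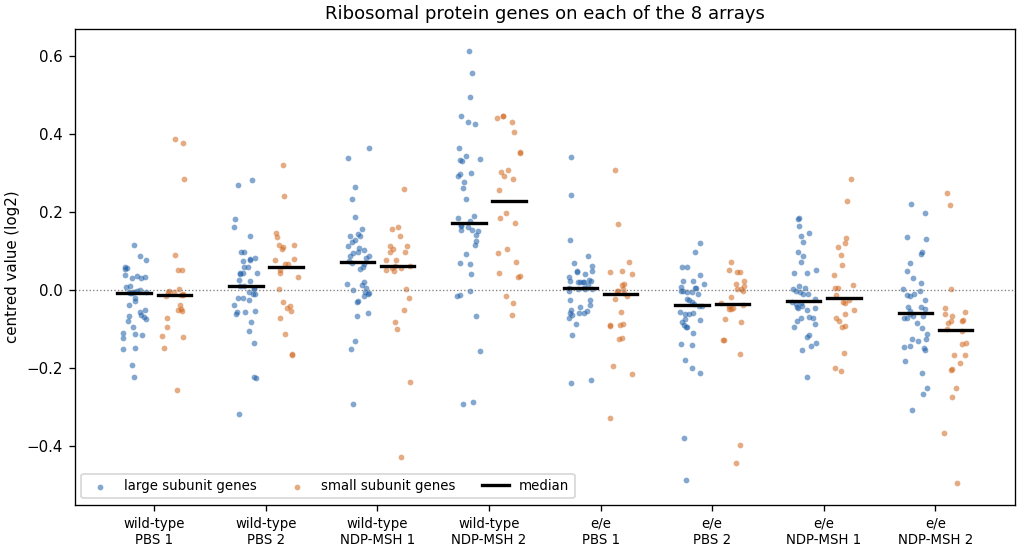
Centred log2 value (vertical axis) of each of the 64 ribosomal protein genes on each of the 8 arrays (horizontal axis), 1 point per gene, with the 40 large subunit genes on the left and the 24 small subunit genes on the right of each array and black lines at their medians. The highest medians are those of wild-type NDP-MSH 2, at 0.17 for the large and 0.23 for the small subunit, and the lowest are those of e/e NDP-MSH 2, at -0.057 and -0.10.

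The subunits followed the same order of arrays at the extremes. Large subunit genes had a median of 0.073 and 0.17 in wild-type NDP-MSH 1 and 2, and small subunit genes 0.063 and 0.23. In e/e NDP-MSH 2 the medians were -0.057 for the large and -0.10 for the small subunit. In wild-type NDP-MSH, 23 of 24 small and 32 of 40 large subunit genes were higher in array 2 (95.8% and 80%, against 54.5% of all genes). In e/e NDP-MSH, 5 of 24 small and 18 of 40 large subunit genes were higher in array 2 (20.8% and 45%, against 47.6% of all genes). The share of the large subunit in e/e NDP-MSH was thus near that of all genes. The SD between replicates, pooled over the 4 groups of 2 arrays, was 0.049 for the median of all members and 0.035 for the large minus small subunit median.

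The first comparison named by the series asks what NDP-MSH changed in wild-type mice. Ribosomal protein genes were mostly higher after NDP-MSH, by small amounts, and none passed the test. Of the 64 members 51 were higher and 13 lower (79.7% higher, against 55% of all genes), with a median difference of 0.12 against 0.018 for all genes. The large subunit had 32 of 40 higher with a median of 0.13, and the small subunit 19 of 24 with a median of 0.11. In limma's moderated test over all 8 arrays, 0 of 64 members passed an adjusted p of 0.05, where 39 of 22180 genes did (0.176%), and the smallest adjusted p of a member was 0.253. At an unadjusted p under 0.05, 11 members were higher (17.2%, against 6.72% of all genes) and 1 was lower (1.56%, against 5.6%). Both NDP-MSH arrays lay above both PBS arrays for 29 members (45.3%, against 25.3% of all genes) and below them for 3 (4.69%, against 18.9%).

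The size of the median rested partly on 1 array, while its direction held without any single array. Without wild-type NDP-MSH 2 the median difference was 0.062 with 45 of 64 members higher, and without wild-type NDP-MSH 1 it was 0.19 with 56 higher. The 11 members that were higher at an unadjusted p under 0.05 became 2 without wild-type PBS 1, 3 without wild-type NDP-MSH 2 and 20 without wild-type NDP-MSH 1. A second quantile normalization of the arrays gave a median of 0.080, against 0.0035 for all genes, with 6 such members. Cerebellar transcripts were lower in the same group, 6 of them past the test. The 9 measured cerebellar markers (of 12 listed) had a median of -1.91 in wild-type NDP-MSH 1 and -1.69 in NDP-MSH 2, against -0.14 to 0.35 on the other 6 arrays, and the 7 measured oligodendrocyte markers (of 8) lay at -0.27 and -0.34 against -0.032 to 0.16. The 8 measured pituitary markers had a median of 1.5 in wild-type NDP-MSH 1 and of at most 0.051 elsewhere. The 3 olfactory bulb markers had their highest median, 0.33, in wild-type NDP-MSH 2, where Cdhr1 was at 2.23, against -0.011 in NDP-MSH 1, and differed between the wild-type groups by 0.054 for Tbx21, 0.066 for Eomes and 1.46 for Cdhr1. The 7 myeloid markers had medians of 0.12 and 0.59 under PBS and 0.46 and 0.028 after NDP-MSH in wild-type mice. Their part in the ribosomal protein values was not tested, and in bulk tissue fewer cells of a type and less RNA per cell cannot be told apart.

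Among large subunit genes with the smallest p, Rpl8, a protein next to the catalytic centre, lay at -0.068 and -0.081 on the wild-type PBS arrays against 0.16 and 0.30 on the wild-type NDP-MSH arrays. Both treated arrays were above both controls, and the difference was 0.30 ± 0.084 (limma, adjusted p = 0.263), which did not pass. Rpl6l, a relative of Rpl6, lay at -0.0024 and -0.060 on the wild-type PBS arrays against 0.27 and 0.33 on the wild-type NDP-MSH arrays, again without overlap, and differed by 0.33 ± 0.089 (adjusted p = 0.253). Other large subunit genes had wider gaps between replicates. Rpl37, which encodes a zinc-binding protein, lay at -0.22 and -0.22 on the wild-type PBS arrays against 0.36 and 0.067 on the wild-type NDP-MSH arrays, higher in array 1 of NDP-MSH, with a difference of 0.44 ± 0.16 (adjusted p = 0.344). Rpl34 lay at 0.0016 and -0.14 on the wild-type PBS arrays against 0.14 and 0.49 on the wild-type NDP-MSH arrays, higher in array 2, with a difference of 0.39 ± 0.16 (adjusted p = 0.385).

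The acidic stalk of the large subunit, which recruits elongation factors, is formed by Rplp0, Rplp1 and Rplp2. Rplp1 lay at -0.10 and 0.083 on the wild-type PBS arrays against 0.19 and 0.45 on the wild-type NDP-MSH arrays, with 0.021 and -0.14 on the e/e PBS arrays against -0.15 and -0.071 on the e/e NDP-MSH arrays. Wild-type NDP-MSH was above every other array, and the wild-type difference was 0.32 ± 0.11 (limma, adjusted p = 0.338). Rplp2 lay at -0.12 and -0.10 on the wild-type PBS arrays against -0.011 and 0.18 on the wild-type NDP-MSH arrays, with 0.0024 and -0.0024 on the e/e PBS arrays against 0.15 and 0.050 on the e/e NDP-MSH arrays, so that the wild-type PBS arrays were the 2 lowest. Rplp0, the scaffold of the stalk, lay at -0.11 and 0.10 on the wild-type PBS arrays against 0.10 and 0.16 on the wild-type NDP-MSH arrays, with 0.050 and 0.0068 on the e/e PBS arrays against -0.041 and -0.21 on the e/e NDP-MSH arrays. Its 2 probe sets differed in wild-type mice by 0.0088 and 0.27, so the gene value averages unlike measurements.

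In the small subunit, Rps28, a protein of the subunit head, lay at -0.15 and -0.11 on the wild-type PBS arrays against 0.11 and 0.26 on the wild-type NDP-MSH arrays and differed by 0.32 ± 0.10 (limma, adjusted p = 0.302). Its 2 probe sets gave differences of 0.51 and 0.12, and the first is the largest of the 104 member probe sets with 1 symbol. Rps13 lay at -0.26 and -0.046 on the wild-type PBS arrays against 0.26 and 0.35 on the wild-type NDP-MSH arrays, without overlap, and had the largest difference of any member at 0.46 ± 0.18 (adjusted p = 0.365). Rps27l, a paralog of Rps27 that p53 induces, lay at -0.094 and -0.040 on the wild-type PBS arrays against 0.11 and 0.29 on the wild-type NDP-MSH arrays and differed by 0.27 ± 0.10 (adjusted p = 0.367). Rps19, the gene most often mutated in Diamond-Blackfan anaemia, lay at -0.012 and 0.077 on the wild-type PBS arrays against 0.16 and 0.44 on the wild-type NDP-MSH arrays, with -0.055 and -0.016 on the e/e PBS arrays against 0.064 and -0.14 on the e/e NDP-MSH arrays, highest in wild-type NDP-MSH 2.

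The 13 members that were lower in wild-type mice were led by Rps15, a protein of the small subunit head, at 0.38 and 0.034 on the wild-type PBS arrays against -0.43 and -0.034 on the wild-type NDP-MSH arrays. The treated arrays were below the controls, but replicates of either group lay far apart, and the difference was -0.44 ± 0.18 (limma, adjusted p = 0.397). Rpl3, which reaches into the catalytic centre, lay at 0.038 and 0.14 on the wild-type PBS arrays against -0.027 and -0.065 on the wild-type NDP-MSH arrays and differed by -0.14 ± 0.083 (adjusted p = 0.532), with probe sets between -0.28 and -0.040. Rps18, which contacts the large subunit, lay at 0.089 and 0.051 on the wild-type PBS arrays against -0.082 and 0.037 on the wild-type NDP-MSH arrays and differed by -0.093 ± 0.076. Rps4l, a relative of Rps4x, lay at 0.29 and -0.17 on the wild-type PBS arrays against -0.24 and -0.062 on the wild-type NDP-MSH arrays, with overlapping groups and a difference of -0.21 ± 0.14. The others of the 8 lower members with the smallest p were Rpl39l (-0.10 ± 0.14), Rps16 (-0.11 ± 0.22), Rpl26 (-0.023 ± 0.10) and Rpl32l (-0.018 ± 0.11). All 4 were smaller than their SE.

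The second comparison named by the series repeats the question for e/e mice, whose Mc1r is not functional. Ribosomal protein genes were more often lower than higher after NDP-MSH, with no member past the test. Of the 64 members 39 were lower and 25 higher (39.1% higher, against 53.7% of all genes), with a median of -0.024 against 0.0082 for all genes. The large subunit had 22 of 40 lower with a median of -0.011, and the small subunit 17 of 24 with a median of -0.036. By limma 0 of 64 members and 0 of 22180 genes passed an adjusted p of 0.05, and the smallest adjusted p of a member was 1. At an unadjusted p under 0.05, 2 members passed in either direction (3.12%, against 3.56% of all genes), both higher (against 1.78% of all genes) and 0 lower (against 1.78%). Treated arrays lay below both controls for 11 members (17.2%, against 14.3% of all genes) and above them for 5 (7.81%, against 16%).

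The e/e direction depended on single arrays. Without e/e PBS 1 the median was 0.0097 with 34 of 64 members higher. Without e/e PBS 2 it was -0.044, without e/e NDP-MSH 1 it was -0.050, and without e/e NDP-MSH 2 it was -0.0052. The 2 members at an unadjusted p under 0.05 became 0 higher without e/e PBS 1, 1 without e/e NDP-MSH 1 and 4 without e/e NDP-MSH 2. Y-linked transcripts and inflammatory markers differed between these arrays. Eif2s3y, on the Y chromosome, was near 0 in e/e PBS 1 (-0.018) but at 2.04 in the second PBS array of this genotype, and at 2.78 and 2.87 after NDP-MSH. Xist, from the inactive X chromosome, was at 0.56 and -0.82 under PBS and at -4.46 and -4.56 after NDP-MSH. The 7 myeloid markers had a median of -0.72, 0.12, -0.76 and -0.86 on these arrays, PBS first, and the 7 measured T cell markers lay at -0.14, 0.090, -0.24 and -0.34 in the same order. The part of these transcripts in the ribosomal protein values was not tested.

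The e/e members with the smallest p were higher after NDP-MSH, against the direction of most. Rps23, a protein of the decoding centre, lay at -0.086 and 0.015 on the e/e PBS arrays against 0.28 and 0.25 on the e/e NDP-MSH arrays, and the treated arrays were the 2 highest of all 8. Its difference was 0.30 ± 0.093 (limma, adjusted p = 1), and in wild-type mice it was -0.0007 ± 0.093. Rpl17, a protein at the exit tunnel, lay at -0.088 and 0.0056 on the e/e PBS arrays against 0.12 and 0.22 on the e/e NDP-MSH arrays, without overlap, and differed by 0.21 ± 0.078 in e/e and 0.12 ± 0.078 in wild-type mice. Rps4l lay at -0.0029 and 0.0029 on the e/e PBS arrays against 0.13 and 0.22 on the e/e NDP-MSH arrays and differed by 0.18 ± 0.14, and Rps18 differed by 0.088 ± 0.076, both without overlap and both opposite in sign to their wild-type differences. Rplp2 (0.10 ± 0.085) was also above both controls, while Rpl28 (0.13 ± 0.12), Rpl34 (0.14 ± 0.16) and Rpl38 (0.094 ± 0.13) overlapped them.

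Among members that were lower in e/e mice, Rps12 lay at -0.014 and -0.033 on the e/e PBS arrays against -0.16 and -0.25 on the e/e NDP-MSH arrays and differed by -0.18 ± 0.11 (limma, adjusted p = 1), against 0.16 ± 0.11 in wild-type mice. All 8 of its probe sets were lower, by 0.16 to 0.19, but 6 of them agree within 0.02 on every array and are not separate measurements. Rpl5, which with Rpl11 and the 5S ribosomal RNA can bind the p53 regulator Mdm2, lay at 0.087 and 0.059 on the e/e PBS arrays against 0.043 and -0.31 on the e/e NDP-MSH arrays and differed by -0.21 ± 0.12. Its partner Rpl11 lay at 0.060 and -0.32 on the wild-type PBS arrays against -0.29 and -0.015 on the wild-type NDP-MSH arrays, with 0.071 and 0.015 on the e/e PBS arrays against -0.071 and 0.14 on the e/e NDP-MSH arrays, with overlapping groups. Rplp0 differed by -0.16 ± 0.10, Rpl4, which lines the exit tunnel, by -0.10 ± 0.081, Rpl7 by -0.10 ± 0.086 and Rpl15 by -0.080 ± 0.077. Rps3, at the mRNA entry channel, lay at -0.023 and 0.023 on the e/e PBS arrays against -0.032 and -0.21 on the e/e NDP-MSH arrays and differed by -0.12 ± 0.11. Rps25, needed for initiation at some viral internal entry sites, lay at -0.089 and 0.048 on the e/e PBS arrays against -0.092 and -0.19 on the e/e NDP-MSH arrays and differed by -0.12 ± 0.12. Treated arrays of Rps12, Rpl5, Rplp0, Rps3 and Rps25 were below both controls, and for all 5 e/e NDP-MSH 2 was the lowest of the 8 arrays.

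**Figure D2:**
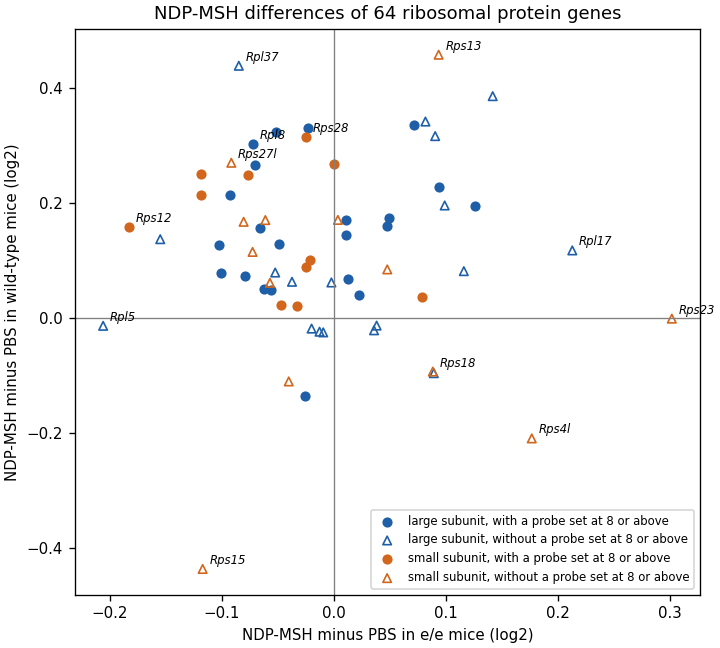
NDP-MSH minus PBS difference (log2) of the 64 ribosomal protein genes in wild-type mice (vertical axis) against e/e mice (horizontal axis), with filled circles for genes with a probe set at an inferred signal of 8 or above, open triangles for the others, blue for the large and orange for the small subunit. Most points lie above the horizontal zero line (51 of 64) and 39 of 64 lie left of the vertical one, and Rps23, Rps4l and Rps15 stand at the edges.

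The difference of the 2 effects, wild-type minus e/e, was positive for 50 of 64 members (78.1%, against 52.8% of all genes) with a median of 0.13 against 0.011. For the same difference all 9 measured cerebellar markers (median -1.73) and all 7 measured oligodendrocyte markers (median -0.29) were negative. All 7 myeloid markers (median 0.38) and all 7 measured T cell markers (median 0.46) were positive. The 4 measured sex-linked transcripts ranged from -2.10 to 3.80, and 59 of 71 mitochondrial ribosomal protein genes were positive (median 0.16). The part of these lists in the ribosomal protein values was not tested. By limma 0 of 64 members and 0 of 22180 genes (0%) passed an adjusted p of 0.05, and the smallest adjusted p of a member was 0.564. At an unadjusted p under 0.05, 4 members passed in either direction (6.25%, against 7.71% of all genes), 4 of them positive (against 3.67%) and 0 negative (against 4.05%). Effects without overlap and of opposite sign were found for 3 members that were higher in wild-type and lower in e/e mice (4.69%, against 3.17%) and for 1 with the reverse (1.56%, against 3.26%). The 4 positive members of smallest p were Rpl8 at 0.37 ± 0.12, Rpl6l at 0.35 ± 0.13, Rps27l at 0.36 ± 0.15 and Rps28 at 0.34 ± 0.14, all of which led the wild-type comparison. The 4 negative ones were Rps23 at -0.30 ± 0.13, Rps4l at -0.39 ± 0.20, Rps18 at -0.18 ± 0.11 and Rps15 at -0.32 ± 0.26. Without wild-type NDP-MSH 2 the median of the members was 0.063 and without wild-type NDP-MSH 1 it was 0.23. The 4 members that were positive at an unadjusted p under 0.05 became 15 without wild-type NDP-MSH 1, 10 without e/e NDP-MSH 1 and 7 without e/e PBS 2, but 2 without wild-type PBS 1 or wild-type NDP-MSH 2 and 1 without e/e NDP-MSH 2 or without e/e PBS 1.

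Under PBS alone, ribosomal protein genes were somewhat lower in e/e than in wild-type mice. Of the 64 members 43 were lower and 21 higher (32.8% higher, against 50.1% of all genes), with a median of -0.040 against 0.0002. By limma 0 of 64 members and 0 of 22180 genes (0%) passed, with a smallest adjusted p of 0.971. At an unadjusted p under 0.05, 4 members passed in either direction (6.25%, against 4.91% of all genes), all lower (against 2.56%) and 0 higher (against 2.35%). The e/e arrays lay below both wild-type arrays for 12 members (18.8%, against 16.7% of all genes) and above them for 6 (9.38%, against 17.4%). The median was -0.070 without wild-type PBS 1, -0.011 without wild-type PBS 2 and -0.0063 without e/e PBS 2. The 4 lower members at an unadjusted p under 0.05 became 2 without any 1 of the PBS or e/e NDP-MSH arrays. Markers of other cells differed between the same groups: all 7 myeloid markers (median -0.64) and all 7 measured T cell markers (median -0.043) were lower in e/e mice, and all 7 measured oligodendrocyte markers were higher (median 0.084). Their part in the ribosomal protein values was not tested.

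The 4 lower members were Rps18 (-0.20 ± 0.076), Rpl32 (-0.24 ± 0.094), Rpl39 (-0.27 ± 0.11) and Rps9 (-0.23 ± 0.094), each with an adjusted p of 0.971. Rpl32 lay at 0.057 and 0.28 on the wild-type PBS arrays against 0.23 and 0.36 on the wild-type NDP-MSH arrays, with -0.057 and -0.076 on the e/e PBS arrays against -0.12 and -0.11 on the e/e NDP-MSH arrays, so that all 4 e/e arrays were below all 4 wild-type arrays. Rps9, at the mRNA entry channel, lay at 0.052 and 0.15 on the wild-type PBS arrays against 0.10 and 0.30 on the wild-type NDP-MSH arrays, with -0.091 and -0.16 on the e/e PBS arrays against -0.10 and -0.20 on the e/e NDP-MSH arrays, again with every e/e array lower. Rpl39, a short protein of the exit tunnel, lay at 0.088 and 0.10 on the wild-type PBS arrays against 0.0051 and 0.15 on the wild-type NDP-MSH arrays, with -0.24 and -0.11 on the e/e PBS arrays against -0.0051 and -0.27 on the e/e NDP-MSH arrays, and the same order held. Both X-linked members are among those lower under PBS in e/e mice. Besides Rpl39 this is Rps4x, at -0.0040 and 0.11 on the wild-type PBS arrays against 0.056 and 0.095 on the wild-type NDP-MSH arrays, with -0.22 and 0.0040 on the e/e PBS arrays against -0.20 and -0.10 on the e/e NDP-MSH arrays, where e/e PBS 2 overlapped the wild-type arrays and the difference was -0.16 ± 0.10. Sex-linked transcripts differed among the e/e arrays, as given above. The 4 measured ones pool Xist with Y-linked transcripts, which moved in opposite directions on the e/e arrays. Their median was 0.012 and -0.092 on the wild-type PBS arrays, and -0.012 and 2.06 on e/e PBS 1 and 2. The relation of these transcripts to Rpl39 and Rps4x was not tested. The higher members of smallest p were Rpl37 (0.36 ± 0.16), Rplp2 (0.11 ± 0.085), Rps28 (0.13 ± 0.10) and Rps27l (0.13 ± 0.10). Both wild-type PBS arrays were among the 4 lowest for each of these genes, and this is the group that also serves as control in the wild-type NDP-MSH comparison, so the comparisons share these samples.

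Other members chosen for their function or as paralogs are given by array. Rps6, the small subunit protein phosphorylated by S6 kinase below mTORC1, lay at -0.0022 and 0.067 on the wild-type PBS arrays against 0.0022 and 0.11 on the wild-type NDP-MSH arrays, with 0.016 and -0.040 on the e/e PBS arrays against -0.024 and -0.065 on the e/e NDP-MSH arrays. Rpsa, also known as the laminin receptor, lay at -0.039 and 0.12 on the wild-type PBS arrays against 0.057 and 0.20 on the wild-type NDP-MSH arrays, with -0.090 and 0.010 on the e/e PBS arrays against -0.050 and -0.080 on the e/e NDP-MSH arrays. Rpl22 lay at -0.15 and 0.061 on the wild-type PBS arrays against -0.059 and 0.093 on the wild-type NDP-MSH arrays, with -0.058 and 0.058 on the e/e PBS arrays against -0.14 and 0.13 on the e/e NDP-MSH arrays, with overlapping groups, and its paralog Rpl22l1, which the symbol rule leaves out, differed by -0.11 ± 0.071 in wild-type mice. Rps27 lay at -0.053 and 0.24 on the wild-type PBS arrays against 0.078 and 0.45 on the wild-type NDP-MSH arrays, with -0.33 and 0.053 on the e/e PBS arrays against -0.070 and -0.37 on the e/e NDP-MSH arrays, highest in wild-type NDP-MSH 2 and lowest in e/e NDP-MSH 2. Of the tissue-restricted paralogs, Rpl3l, known from muscle, lay at -0.039 and -0.021 on the wild-type PBS arrays against 0.059 and 0.041 on the wild-type NDP-MSH arrays, with 0.021 and 0.024 on the e/e PBS arrays against -0.036 and -0.024 on the e/e NDP-MSH arrays, and Rpl10l, known from testis, at -0.051 and 0.041 on the wild-type PBS arrays against 0.0015 and 0.12 on the wild-type NDP-MSH arrays, with 0.024 and -0.0015 on the e/e PBS arrays against -0.0091 and -0.043 on the e/e NDP-MSH arrays. Rpl3l had no overlap of treated and control arrays in either genotype, in opposite directions. It rests on 1 probe set with an inferred signal between 4 and 8, and all its values lay between -0.039 and 0.059. Rpl39l, also known from testis, lay at -0.0045 and 0.023 on the wild-type PBS arrays against 0.11 and -0.29 on the wild-type NDP-MSH arrays, with 0.0045 and -0.030 on the e/e PBS arrays against -0.045 and 0.20 on the e/e NDP-MSH arrays.

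The size of the differences varied with the brightness of the probe sets. The rounding left in the deposited values shows whether the signal before centring was 8 or above or between 4 and 8 on the log2 scale. Of the 104 member probe sets 48 were at 8 or above (46.2%, against 28.5% of all named probe sets). Averaged by gene, these bright probe sets measured 33 of the 64 members. In wild-type mice 31 of the 33 were higher after NDP-MSH (93.9%, against 56.6% of all 6537 genes measured this way), with a median of 0.18 against 0.025. Treated arrays lay above both controls for 21 of them (63.6%, against 32.3%) and below for 0 (against 22.8%). In e/e mice 10 of the 33 were higher (30.3%, against 61.9%), with a median of -0.051 against 0.025, and treated arrays lay below both controls for 13 (39.4%, against 9.82%) and above for 0 (against 15.9%). Under PBS 8 of the 33 were higher in e/e than in wild-type mice (24.2%, against 52.4%). By limma within this set 0 of the 33 passed an adjusted p of 0.05 in any comparison, with a smallest adjusted p of 0.127 in wild-type mice, 1 in e/e mice and 0.4 for the difference of effects. Of all 6537 genes 29 passed in wild-type mice (0.444%), 2 for the difference of effects (0.0306%) and 0 in e/e mice and under PBS. At an unadjusted p under 0.05, 8 of the 33 were higher in wild-type mice (24.2%, against 9.55% of the 6537 genes) and 0 lower (against 7.5%). In e/e mice 0 were higher (against 1.64%) and 1 was lower (3.03%, against 1.24%). For the difference of effects 11 were positive (33.3%, against 3.73%) and 0 negative (against 5.09%), and under PBS 0 were higher (against 2.94%) and 2 lower in e/e mice (6.06%, against 2.55%).

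Among these 33 genes Rps28 differed by 0.51, Rps19 by 0.38, Rpl9 by 0.37 and Rpl6l by 0.33 in wild-type mice, and the 2 lower genes were Rpl3 at -0.085 and Rpl4 at -0.042. The dimmer probe set of the same gene gave 0.12 for Rps28, 0.051 for Rps19, -0.054 for Rpl9 and 0.30 for Rpl4. In e/e mice the lowest were Rpl7 and Rps12, both at -0.18. The wild-type median of the bright set was 0.087 without wild-type NDP-MSH 2, with 30 of 33 higher, and 0.30 without wild-type NDP-MSH 1. The e/e median was -0.020 without e/e NDP-MSH 2, with 12 of 33 higher, and -0.092 without e/e NDP-MSH 1, with 3 higher. The 56 dimmer member probe sets had medians of 0.056 in wild-type and -0.0002 in e/e mice. Those of all 16445 named probe sets of that class were 0.016 and 0.0025. In wild-type mice 32 of the 56 were higher (57.14%, against 54.55% of the class). In e/e mice 28 were higher (50%, against 51.06%), so both shares were near those of the class. Several genes described one by one above rest on 1 dimmer probe set each. Among them are Rpl37, Rpl34, Rps13, Rps27l and Rps15 of the wild-type comparison, and Rps23, Rpl17, Rpl5 and Rps4l of the e/e comparison. Some probe sets of a symbol can also read its processed pseudogenes, which were not separated here. Of the 24 members with more than 1 probe set, 8 had probe sets of opposite sign in wild-type mice and 11 in e/e mice.

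**Figure D3:**
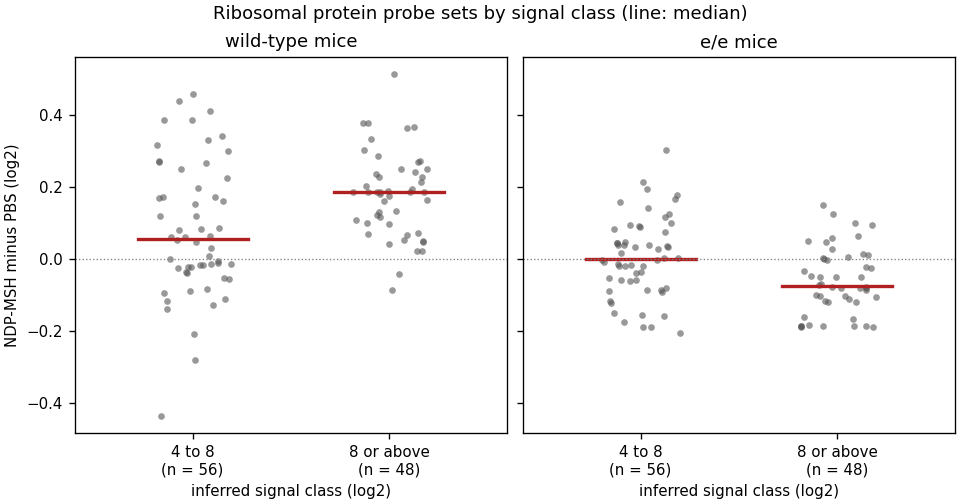
NDP-MSH minus PBS difference (log2, vertical axis) of each ribosomal protein probe set in wild-type mice (left) and e/e mice (right), split by the inferred signal before centring (4 to 8, 56 probe sets, or 8 or above, 48 probe sets), with red lines at the medians. The brighter probe sets have medians of 0.19 in wild-type and -0.075 in e/e mice, and the dimmer ones 0.056 and -0.0002. Some brighter points are near-copies, such as 6 of the 8 Rps12 probe sets. Averaged by gene, the brighter medians are 0.18 and -0.051.

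Probe sets that name a member together with other symbols were left out of the 64 genes and are described apart. Of the 57 such probe sets 45 were higher in wild-type mice after NDP-MSH, with a median of 0.14, and 19 were higher in e/e mice, with a median of -0.037. Their median per array was highest in wild-type NDP-MSH 2, at 0.19, and lowest in e/e NDP-MSH 2, at -0.11. Ribosomal protein pseudogenes, 15 of which have a symbol of their own, had a median of 0.046 in wild-type mice (10 of 15 higher) and -0.035 in e/e mice (3 of 15 higher).

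Other genes of translation were compared through fixed lists, and none of their members passed an adjusted p of 0.05 by limma in any comparison. Of 16 measured TOP mRNAs of translation factors and related proteins 11 were higher in wild-type mice (median 0.088) and 4 in e/e mice (median -0.036), the same directions as the ribosomal proteins. The 2 with the smallest p in wild-type mice were the initiation factor gene Eif4b at -0.19 ± 0.083 and the histone chaperone gene Nap1l1 at 0.19 ± 0.091. Of 32 genes of RNA polymerase I and ribosome assembly 21 were higher in wild-type mice (median 0.072), with the assembly factors Bysl at 0.35 ± 0.11 and Bop1 at 0.31 ± 0.10, and 19 were higher in e/e mice (median 0.0051), where Nop56, of the snoRNA particle, lay at -0.25 ± 0.097. Of 13 genes of mTORC1 signalling and cap binding 5 were higher in wild-type mice (median -0.032), with Myc, a transcription factor gene that promotes ribosome synthesis, at 0.26 ± 0.073 and Rptor, of mTORC1, at -0.21 ± 0.10, and 6 in e/e mice (median -0.016), with Myc at -0.13 ± 0.073. In e/e mice the smallest p among translation factors belonged to the elongation factor genes Eef1d and Eef1g, both at -0.087.

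Ribosomal proteins of the mitochondrion, which form a separate ribosome, were higher in 64 of 71 genes in wild-type mice (median 0.19) and in 44 of 71 in e/e mice (median 0.032). Mrpl28 and Mrpl46 had the smallest p in wild-type mice, at 0.34 ± 0.078 and 0.43 ± 0.12. Subunits of the respiratory chain were higher in 54 of 62 genes in wild-type mice (median 0.14), led by Cox7b at 0.39 ± 0.11 and Uqcr11 at 0.32 ± 0.091, and in 46 of 62 in e/e mice (median 0.046), led by Atp5o at 0.31 and Uqcrc1 at 0.21. A higher median in wild-type NDP-MSH 2 was therefore shared with these mitochondrial lists, at 0.19 for both. In e/e mice the cytosolic list had a median below 0 and the mitochondrial lists above 0, a difference between lists that was not tested. Of 4 measured ribosomal protein and related genes outside the symbol rule, Fau, which encodes a small subunit protein fused to a ubiquitin-like domain, had values of 0.0038 and 0.11 under PBS against 0.077 and 0.29 after NDP-MSH in wild-type mice, with -0.049 and -0.11 against -0.24 and -0.081 in e/e mice. Rps3a1 lay at -0.040 and -0.015, 0.043 and 0.21, -0.036 and -0.066, and 0.17 and -0.15 in the same order.

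**Figure D4:**
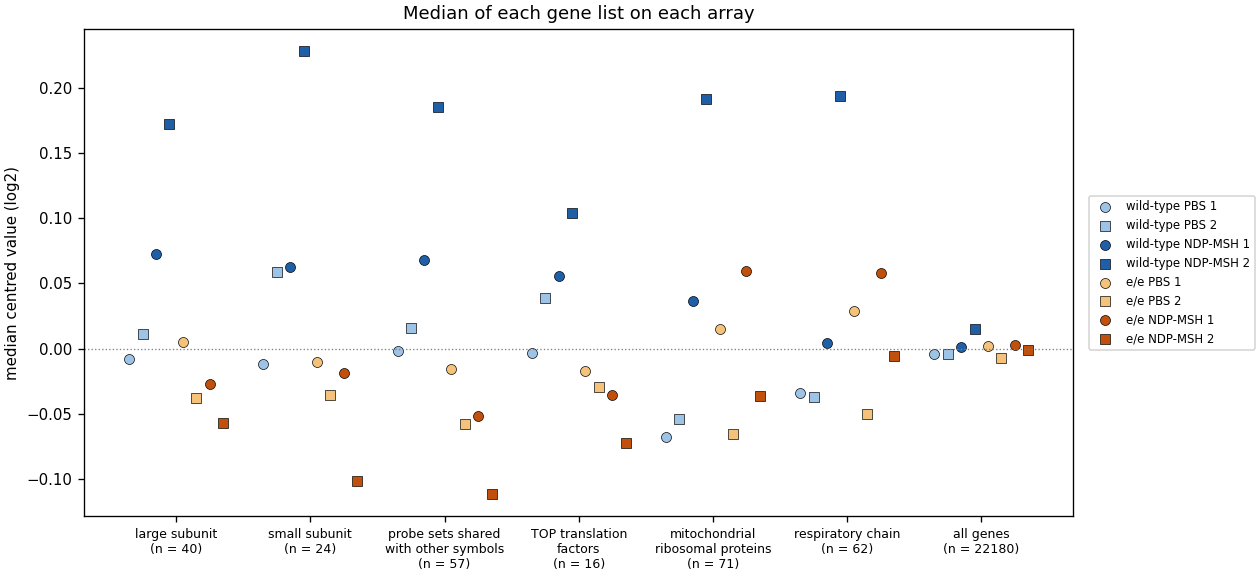
Median centred log2 value (vertical axis) on each of the 8 arrays for the large and small subunit genes, probe sets that share a member with other symbols, TOP (5′ terminal oligopyrimidine) mRNAs of translation factors, mitochondrial ribosomal proteins, respiratory chain subunits and all genes, with circles for replicate 1, squares for replicate 2 and colours for the 4 groups. Wild-type NDP-MSH 2 has the highest median of every list, at 0.17 and 0.23 for the subunits and 0.015 for all genes, and e/e NDP-MSH 2 the lowest median of the first 4 lists.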

How the data were processed

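RNA of 8 mouse brain samples was hybridised to 1 Affymetrix whole-transcript array each. The authors' deposited values were read as log2 values, an assumption, since the log base, summarisation and normalization were not given in any source used here. Every row of the deposited table is centred on its median over the 8 arrays. Gene names of probe sets came from the platform annotation: of 33793, 23521 carry 1 gene symbol, 1814 several and 8458 none. Probe sets with the same single symbol were averaged, giving 22180 genes, and no filter on low values was applied.

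Differences were tested with limma 3.58.1 in R 4.3.3, with 1 coefficient per group over all 8 arrays, moderated standard errors and Benjamini-Hochberg adjustment over 22180 genes at 0.05. Values after ± are standard errors, with 2 arrays per group, and this number of arrays limits the precision. In a simulated wild-type comparison of 22180 genes the test found 46% of genes changed by 0.5 on the log2 scale, 78% of those changed by 1 and 98% of those changed by 2. It also called 8 of 21980 unchanged genes (0.0364%). The simulated noise was independent between genes and arrays, without shifts shared by an array. Member differences in wild-type mice lay between -0.44 and 0.46, and changes smaller than 0.5 were not simulated.

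The members and lists were chosen with earlier results of these data known. Named genes were, in each NDP-MSH comparison, the 8 higher and 8 lower members of smallest p, in the other comparisons the 4 and 4, a fixed set of stalk, regulatory and paralogous members, and the 2 genes of smallest p of each pathway list in the NDP-MSH comparisons, not all of which are printed. The signal class of a probe set was read from the rounding step of its single-precision values, within a tolerance of 0.05. Deviations of replicate 1 from its group mean correlated over 0.1 in 3 of the 6 pairs of groups. The largest correlation, 0.44, was between the 2 PBS groups. As not every pair correlated, the numbers were not taken to pair samples and the main fit has no replicate block. A fit with the block was run as an alternative. Alternatives covered normalization, centring, array weights, moderation, probe set summary, signal class, the arrays fitted and each array left out.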

Additional observations from a re-analysis of the deposited data

Results flagged for a closer look

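For 4 ribosomal protein genes both NDP-MSH arrays lay beyond both PBS arrays in 1 direction in wild-type mice and in the opposite direction in e/e mice. For Rps25 the wild-type minus e/e difference of effects was 0.37 ± 0.16 (limma, adjusted p = 0.65), from 0.25 in wild-type and -0.12 in e/e mice. For Rps3 it was 0.33 ± 0.15 (adjusted p = 0.658), from 0.21 and -0.12. For Rpl3l, measured by 1 dimmer probe set, it was 0.13 ± 0.092 (adjusted p = 0.774), from 0.079 and -0.052. Rps18 ran the other way at -0.18 ± 0.11 (adjusted p = 0.731), from -0.093 and 0.088. Some of the gaps were narrow. In e/e mice the nearest PBS and NDP-MSH arrays of Rps25 lay at -0.0895 and -0.0922, and those of Rps3 at -0.0227 and -0.0316. In wild-type mice those of Rps18 lay at 0.0509 and 0.037. None of the 4 genes passed the test of the difference. The first pattern was met by 3 of 64 members (4.69%, against 3.17% of all genes) and the reverse by 1 (1.56%, against 3.26%), shares close to the background.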

How the results depend on the processing

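No ribosomal protein gene passed an adjusted p of 0.05 by limma under any alternative run. Deviations of replicate 1 from its group mean, taken without a block, correlated between -0.25 and 0.44 over the pairs of groups. With the replicate block the count of members past the threshold was 0 and the wild-type median stayed at 0.12. In that fit 14 of all genes passed in wild-type mice instead of 39. Over all alternatives that number of genes ran from 0 without wild-type PBS 2 to 49 without either e/e PBS array. The wild-type median was 0.18 with bright probe sets alone, 0.080 after a second quantile normalization, and 0.062 to 0.19 with each array left out. The median difference of effects was 0.21 with bright probe sets, and 0.063 to 0.23 with each array left out. With each array left out the e/e median ran from -0.050 to 0.0097 and the PBS median from -0.070 to -0.0063, and with bright probe sets the e/e median was -0.051. The large minus small subunit median was -0.0755 for the difference of effects with each probe set as a feature, and 0.0831 in e/e mice with genes of 1 probe set. With each array left out it ran from -0.0042 to 0.0687 in wild-type mice, -0.0156 to 0.0494 in e/e mice, -0.0493 to 0.0269 for the difference of effects and 0.0049 to 0.0845 under PBS. No cause of these shifts was tested.

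Of the named members, 5 of those lower in wild-type mice turned higher when 1 array was left out: Rps4l at 0.0168 and Rps16 at 0.1204 without PBS 1, Rpl26 at 0.0719 without PBS 2 and 0.0861 without NDP-MSH 1, Rpl32l at 0.0343 without PBS 2 and 0.0933 without NDP-MSH 2, and Rpl39l at 0.1039 without NDP-MSH 2. Their values with each array left out reached down to -0.4345 for Rps4l, -0.3401 for Rps16, -0.1329 for Rpl26, -0.1292 for Rpl32l and -0.2949 for Rpl39l. Rpl32l was also at 0.0042 after a second quantile normalization. In e/e mice 3 turned lower: Rpl34 at -0.0595 and Rpl38 at -0.0154 without PBS 2, and Rpl38 at -0.0406 and Rpl28 at -0.0371 without NDP-MSH 1. The highest values of Rpl34 and Rpl28 were 0.3433 and 0.2885. The bright probe sets with each array left out were chosen after seeing the data.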
